A study of Mus musculus with 6 samples.

Results

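The genes described here are 34 genes of mitochondrial fatty acid oxidation and ketone use, measured by RNA sequencing in iWAT, the inguinal white fat depot under the skin, of mice on a high-fat diet (HFD). They were chosen by name for their place in the pathway, from acyl-CoA activation to electron transfer and ketone metabolism, without the mitochondrial solute carriers and the peroxisomal enzymes. All 34 had a row among the 15176 genes of the deposited table. The study set 4 libraries of Steap4f/f mice (replicates 1, 2, 5 and 6), whose Steap4 gene is floxed, against 2 libraries of Steap4AKO mice (replicates 2 and 3), which lack Steap4 in adipocytes. Both groups share the depot and the diet, and the study asked what loss of adipocyte Steap4, a metalloreductase of iron and copper, does to mitochondria in this tissue. The ages, the sexes and the Cre driver are not given in the sources used here. Whether each library came from a separate mouse is not stated either, so the p-values speak only of the variation among these 6 libraries. Whole fat was sequenced, and fewer cells of a type and less RNA per cell cannot be told apart.

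Fatty acids are oxidized after they are joined to coenzyme A by acyl-CoA synthetases and carried into mitochondria as carnitine esters. Carnitine palmitoyltransferase 1 is the step that malonyl-CoA inhibits. Inside, a spiral of dehydrogenase, hydratase, second dehydrogenase and thiolase shortens the chain, and the electron transfer flavoprotein hands electrons to the respiratory chain. White adipocytes mainly store fat and oxidize little of it, while thermogenic adipocytes and muscle fibres oxidize a great deal. Tissues other than liver burn ketone bodies through succinyl-CoA transferase.

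The promoters were searched for motifs of the nuclear receptors known to regulate fatty acid oxidation. RefSeq promoters of GRCm38.p6, 300 bases long from 250 before to 50 after the start, were at hand for 30 of the 34 genes (32 promoters). Cpt1b, Acaa2, Decr1 and Acot13 had none. The hexamer bound by nuclear receptors, AGGTCA, was found on either strand in 6 genes and in 18.8% of the member promoters, against 16.3% of all 32851 promoters. The DR1 element of PPAR and RXR, which is 2 copies of AGGTCA with 1 base between them and was searched with up to 2 mismatches on either strand, was found in 2 genes and in 6.25% of the member promoters, against 3.86% of all. One of the DR1 matches, in Echs1, overlaps its hexamer. The element of the estrogen-related receptors, TCAAGGTCA, was in 0 member promoters and in 0.423% of all. The windows below show both DR1 matches and, as examples of the hexamer, those of Cpt1a and Acadvl, which had the smallest adjusted p-values among the 6 genes, with the matching bases in capitals and 10 bases on either side, written 5′ to 3′ on the strand of the gene.
Cpt1a: gtttccttacTGACCTcctccccgca
Acadvl: ggatcaccctAGGTCAggtagaatac
Echs1: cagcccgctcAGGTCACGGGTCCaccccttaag
Etfa: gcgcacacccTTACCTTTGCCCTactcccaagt
The matches lie 94, 87, 83 and 77 bases before the start sites of Cpt1a, Acadvl, Echs1 and Etfa, and those of Cpt1a and Etfa read on the opposite strand.

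Hadha and Hadhb, which encode the alpha and beta subunits of the mitochondrial trifunctional protein, lie head to head on chromosome 5, with 273 bases between their RefSeq start sites. Their promoter windows share 228 bases, in which the share of G and C is 57%. The Hadhb window (chr5:30155003-30155302, plus strand) is shown because it holds most of the stretch between both RefSeq start sites, with the shared bases in capitals. In the GENCODE M21 annotation Hadha reaches 30155162, so part of this window lies inside that gene.
Hadhb: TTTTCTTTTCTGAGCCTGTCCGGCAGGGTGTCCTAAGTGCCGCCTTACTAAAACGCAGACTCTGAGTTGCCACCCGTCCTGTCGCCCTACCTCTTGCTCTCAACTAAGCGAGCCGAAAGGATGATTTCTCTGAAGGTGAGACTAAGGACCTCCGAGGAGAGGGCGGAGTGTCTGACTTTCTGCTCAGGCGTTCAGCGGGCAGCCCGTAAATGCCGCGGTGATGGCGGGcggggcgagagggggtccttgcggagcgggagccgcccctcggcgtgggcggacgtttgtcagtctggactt

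Most genes of the set had lower values in the Steap4AKO libraries, and none passed the test over all genes. The fitted log2 difference, Steap4AKO minus Steap4f/f on log2(value + 1) of the DESeq2-normalized values, was below 0 for 29 of 34 genes, against 47.8% of the 15006 genes tested. Its median was -0.57 over the 34 genes and 0.02 over all genes. In 16 genes both Steap4AKO libraries lay below every Steap4f/f library, where 14.4% of all genes did so, and in 2 genes (Cpt1a and Acsl5) both lay above, where 14.1% did so. At an adjusted p of 0.05 in limma 0 of 34 genes were called, against 0.473% of all genes (0.433% lower and 0.04% higher), and the smallest adjusted p was 0.0665, for Etfb. At an unadjusted p of 0.05 there were 20 genes, 18 lower and 2 higher, against 18.1% of all genes (9.66% lower and 8.45% higher). The summed skeletal muscle markers, described further on, did not overlap between the groups, so muscle content and genotype cannot be told apart in these libraries. With those markers as a covariate the median over the 34 genes was 0.01, but the estimates were less precise: Etfb stood at -0.80 with an SE of 0.43, against -1 with an SE of 0.19. No other tool was run.

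**Figure D1:**
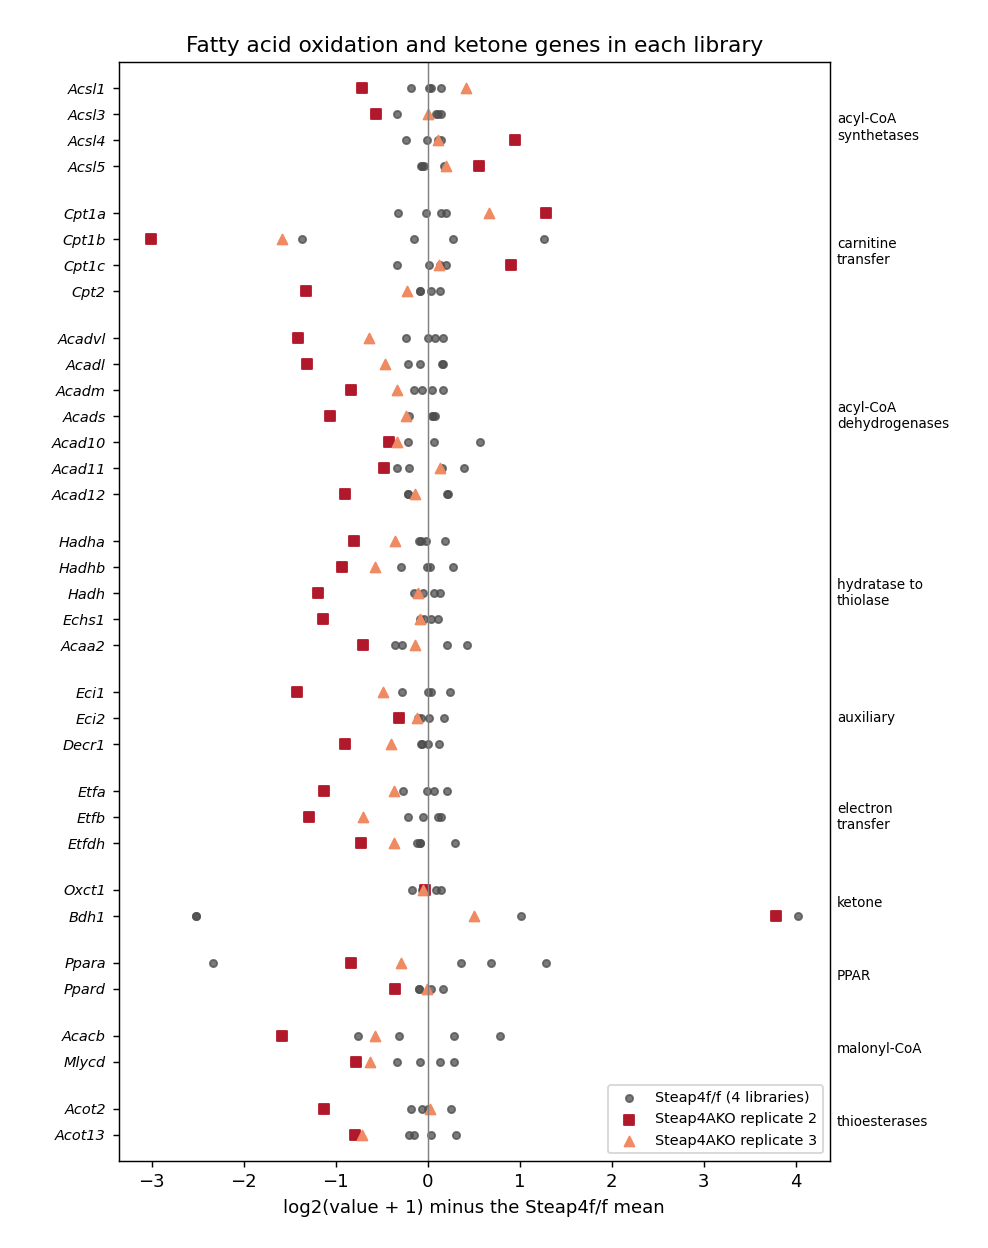
Each of the 34 genes in each library, as log2(value + 1) minus the mean of the 4 Steap4f/f libraries, ordered by role. Grey points are Steap4f/f libraries, squares Steap4AKO replicate 2 and triangles Steap4AKO replicate 3, and in 16 genes both coloured symbols lie to the left of every grey point.

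The 2 Steap4AKO libraries did not differ from Steap4f/f to the same extent. The median over the 34 genes stood at -0.82 for Steap4AKO replicate 2 but at -0.24 for replicate 3, each measured from the Steap4f/f mean. The Steap4f/f libraries spanned -0.08 to 0.16. Replicate 2 lay below every Steap4f/f library in 26 genes, above in 4 and within in 4, where 28.6% of all genes lay below and 31.5% above. Replicate 3 lay below in 16, above in 3 and within in 15, where 23.4% of all genes lay below and 24.4% above. Without replicate 3 the test called 11 of the 34 genes, against 5.47% of all genes (2.44% lower), and without replicate 2 it called none of the 34. The 11 were Cpt1a, which was higher, and Cpt2, Acadvl, Acadl, Acads, Hadh, Echs1, Eci1, Decr1, Etfa and Etfb, which were lower. Their adjusted p-values without replicate 3 lay between 0.0175 (Cpt2) and 0.0451 (Etfa), and that fit takes the lone Steap4AKO library to vary like the others.

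Markers of other cells also differed, some lists between the groups and others mainly in Steap4AKO replicate 2. Apart from the muscle covariate above, their part in the values of the 34 genes was not tested. All 18 skeletal muscle markers had lower fitted values in Steap4AKO, and 8 passed the test. That count was 14 without Steap4AKO replicate 3, 11 without Steap4f/f replicate 1 and 0 without any 1 of the other libraries. Summed, they ranged from 162635 to 898593 across Steap4f/f but reached only 2496 and 22268 in Steap4AKO, with Myh7 at 0 in Steap4f/f replicate 1 and in Steap4AKO replicate 3. The muscle sum also differed 5.53-fold among the Steap4f/f libraries, with replicate 1 lowest and replicate 6 highest. The 12 adipocyte markers had a median of -0.81 in Steap4AKO replicate 2 and 0.02 in replicate 3, with summed values of 333201 and 519988 against 537159 to 687949 in Steap4f/f, and none at 0. Of these 12, Fabp4, Retn, Cfd and Acvr1c lay below every Steap4f/f library in both Steap4AKO libraries and Lep, leptin, lay above. The 8 thermogenic adipocyte markers had medians of -1.83 and -1.69, with sums of 517.9 and 1619 against 2291 to 6029 and Elovl3 at 0 in Steap4f/f replicate 2 and Steap4AKO replicate 3. Only 2 of these 8, Cox7a1 and Cox8b, lay below every Steap4f/f library in both Steap4AKO libraries. Ucp1 overlapped, at 58, 4.01, 890.8 and 2069 across Steap4f/f replicates 1, 2, 5 and 6 and at 17.2 and 26.9 in Steap4AKO. Steap4AKO replicate 2 stood apart: its 8 macrophage markers summed to 29426, against 8791 to 10810 in the other 5 libraries, and its 6 mesothelial markers to 2153, against 24.4 to 443.2 in the others. Its 7 measured epithelial markers summed to 2384, against 40.1 to 102.8 in the others, and its 7 T and B cell markers to 375.2, against 64.1 to 134.1. The 8 fibroblast and progenitor markers summed to 63609 and 68552 in Steap4AKO against 84998 to 105477, with 5 of them below every Steap4f/f library in both, and the 5 endothelial markers summed to 17615 and 20209 against 15562 to 17200. Depth, estimated from the value of 1 read in each column, was 15900000 to 19500000 reads in Steap4f/f, 11600000 reads in Steap4AKO replicate 2 and 18200000 reads in replicate 3. The Steap4 transcript stood at 17018, 9417, 8310 and 8851 across Steap4f/f, with 8313 and 8014 for Steap4AKO (log2 difference -0.35, adjusted p = 0.544), and Steap4AKO replicate 2 lay inside the Steap4f/f range. The table is per gene, so it cannot show whether the floxed part was missing.

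**Figure D2:**
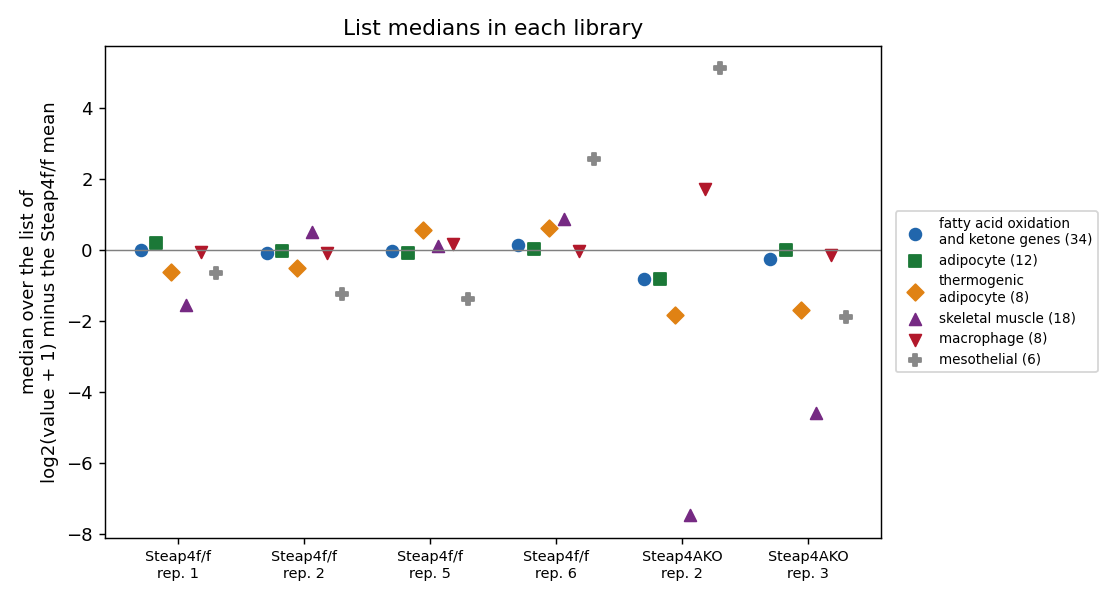
Median of log2(value + 1) minus the Steap4f/f mean over the 34 genes and over 5 marker lists, for each library, with the number of genes of each list in brackets. In Steap4AKO replicate 2 the 34 genes and the adipocyte markers lie at -0.82 and -0.81, and in replicate 3 at -0.24 and 0.02.

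In what follows, values are DESeq2-normalized and are given for Steap4f/f replicates 1, 2, 5 and 6 and then for Steap4AKO replicates 2 and 3. Folds are ratios of the group means.

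The acyl-CoA synthetases, which activate fatty acids, had no common direction. Acsl1 (chromosome 8), the main synthetase of adipocytes, was at 33651, 38141, 41765 and 38932 and at 23303 and 50536. The Steap4AKO libraries thus lay on opposite sides of all 4 Steap4f/f libraries, and the log2 difference was -0.15 (SE 0.31, adjusted p = 0.83), turning to 0.04 when columns were rescaled to equal totals. Per kilobase of transcript Acsl1 had the highest level of the 34 genes in Steap4f/f, at 9783. Acsl5, which is linked to triglyceride synthesis as well as oxidation, was at 1166, 977.2, 999.3 and 985.8 and at 1514 and 1179. Both Steap4AKO values were above the Steap4f/f range, the lower one only just, and the mean was 1.3-fold higher (log2 difference 0.38, SE 0.16, adjusted p = 0.261). Acsl4, which prefers arachidonic acid, was at 363.1 to 472.2 in Steap4f/f and at 828.2 in Steap4AKO replicate 2, with 464.8 in replicate 3. Acsl3, found on lipid droplets and the endoplasmic reticulum, was at 331.4 to 463.4 in Steap4f/f, with 283.8 and 420.3 in Steap4AKO. Acsl3 and Acsl4 therefore left the Steap4f/f range in replicate 2 and not in replicate 3.

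The carnitine palmitoyltransferases differed by isoform. Cpt1a (ENSMUSG00000024900, chromosome 19, 3322334 to 3385733), the liver isoform, which white fat also expresses, was at 1202, 1733, 1660 and 1480 and at 3658 and 2398. Both Steap4AKO libraries lay above every Steap4f/f library, with a mean of 1519 ± 236.3 (SD, n = 4) against 3028 ± 890.6 (SD, n = 2). The mean was 1.99-fold higher (log2 difference 0.98, SE 0.22, adjusted p = 0.0897), and the log2 difference was 0.67 without Steap4AKO replicate 2. Cpt1b (ENSMUSG00000078937, chromosome 15, 89416405 to 89425863), the isoform of muscle and brown fat, went the other way, at 389.6, 906.2, 1213 and 2412 and at 124.5 and 336.6. Its mean was 5.34-fold lower (log2 difference -2.29, SE 0.68, adjusted p = 0.16; 1.07 with an SE of 0.63 under the muscle covariate), and Steap4AKO replicate 3 lay close below Steap4f/f replicate 1. Within Steap4f/f, Cpt1b varied 6.19-fold and was lowest in replicate 1 and highest in replicate 6. Those libraries also had the lowest and highest muscle marker sums. The thermogenic adipocyte sum was highest in Steap4f/f replicate 6 too, but lowest in replicate 2. Apart from the muscle covariate, a link to either list was not tested. Cpt1c, the neuronal isoform, was low throughout, at 55.9, 77.6, 71.3 and 81.5 and at 133.3 and 77.3, and overlapped between groups. Cpt2, the inner membrane enzyme that returns acyl groups to coenzyme A, was at 4799, 4104, 4140 and 4497 and at 1756 and 3725. Its mean was 1.6-fold lower without overlap (log2 difference -0.77, SE 0.27, adjusted p = 0.204), and the log2 difference was -0.23 without Steap4AKO replicate 2.

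**Figure D3:**
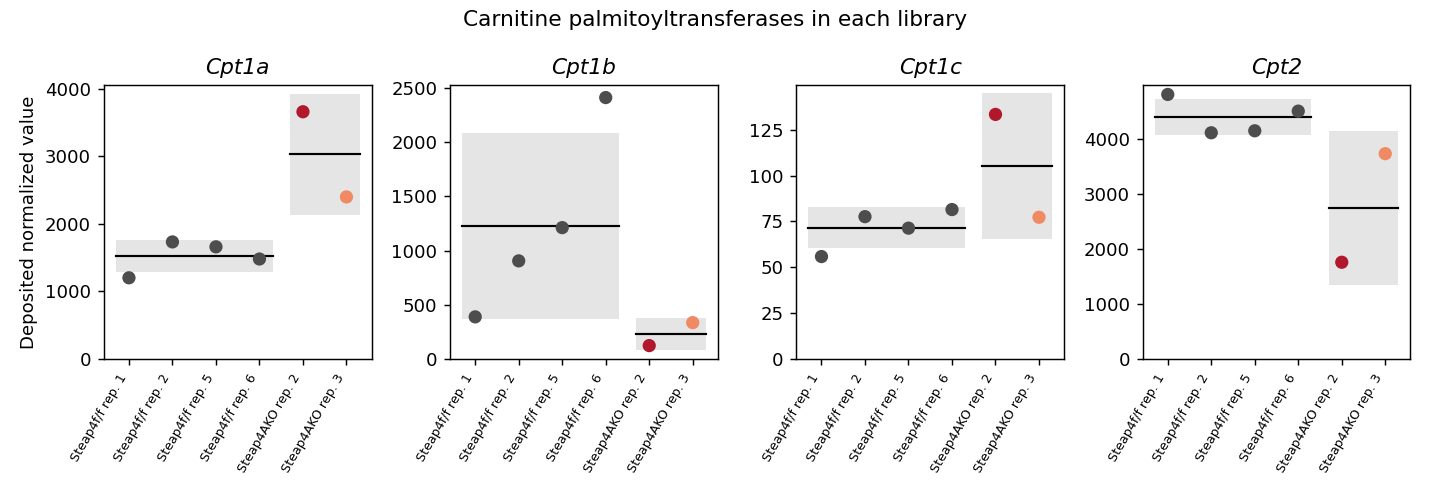
Deposited normalized values of the 4 carnitine palmitoyltransferase genes in each library, on linear axes that start at 0, with group means as lines and 1 SD on either side as shading. The Steap4AKO points of Cpt1a lie above all Steap4f/f points and those of Cpt1b below them, while Cpt1c overlaps.

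The balance of the 2 main outer membrane isoforms was compared per kilobase of transcript, a comparison chosen after the values were seen. The ratio of Cpt1b to Cpt1a was 0.483, 0.78, 1.09 and 2.43 across Steap4f/f, with 0.0507 and 0.209 for Steap4AKO. The groups could not overlap, because both Steap4AKO libraries lay above every Steap4f/f library for Cpt1a and below for Cpt1b. The difference of mean log2 ratios was -3.28, with an SD of 0.98 in Steap4f/f and 1.45 in Steap4AKO. The two-sided exact permutation p was 0.133, which is the smallest that 4 libraries against 2 can give. That p was fixed by the values of the 2 genes taken singly and adds nothing to them.

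The acyl-CoA dehydrogenases of straight chains, which take the first electrons from the fatty acid, did not overlap between the groups, with lower values in Steap4AKO. Acadvl (ENSMUSG00000018574, chromosome 11, 70010183 to 70015411), for very long chains, was at 7045, 5668, 6666 and 7495 and at 2520 and 4287. Its mean was 1.97-fold lower (log2 difference -1.02, SE 0.23, adjusted p = 0.0888), and the log2 difference in replicate 3 alone was -0.64. Acadl, for long chains, was at 10706, 8361, 9063 and 10785 and at 3902 and 6968, a mean 1.79-fold lower (log2 difference -0.89, SE 0.24, adjusted p = 0.138). Replicate 2 was lower than replicate 3 in each of these enzymes. Acadm, for medium chains, was at 10212, 10889, 12663 and 11730 and at 6340 and 8973 (mean 1.49-fold lower, adjusted p = 0.179). Acads, for short chains, was at 4464, 3753, 4543 and 4491 and at 2062 and 3637 (mean 1.51-fold lower, adjusted p = 0.201). In Acads replicate 3 lay only a little below the lowest Steap4f/f library. Acad10, Acad11 and Acad12, relatives with less studied substrates, overlapped between groups. Acad10 was at 314.8 to 632.3 in Steap4f/f, with 317 and 335.9 in Steap4AKO, Acad11 at 2147 to 3574 and at 1948 and 2986, and Acad12 at 550.4 to 746.3 and at 343.4 and 581.2. The straight-chain enzymes therefore separated the groups and the 3 others, each taken alone, did not. The sum of Acad10 and Acad12, which share transcript sequence, was lower without overlap, as given further on. A difference between the subgroups was not tested.

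The trifunctional protein, which carries out the next steps for long chains, had both subunits lower. Hadha (chromosome 5, 30118304 to 30155162) was at 7445, 7630, 7908 and 9147 and at 4587 and 6219, a mean 1.49-fold lower (log2 difference -0.58, SE 0.17, adjusted p = 0.159). Hadhb (chromosome 5, 30155248 to 30184593) was at 9588, 7694, 9392 and 11389 and at 4960 and 6352, a mean 1.68-fold lower (log2 difference -0.75, SE 0.19, adjusted p = 0.124). Neither subunit overlapped between groups, and in replicate 3 alone the log2 differences were -0.36 and -0.57. Hadh and Echs1 lay below the Steap4f/f range in replicate 2 and within it in replicate 3. Hadh, the short-chain 3-hydroxyacyl-CoA dehydrogenase, was at 7911, 7387, 8944 and 8588 and at 3598 and 7578. Echs1, the short-chain hydratase, was at 5909, 5635, 6254 and 5460 and at 2628 and 5475. The means were 1.47-fold and 1.44-fold lower (adjusted p = 0.266 and 0.273). Acaa2, the thiolase that closes the spiral, was at 2983 to 5153 in Steap4f/f, with 2353 and 3470 in Steap4AKO.

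The auxiliary enzymes, which rearrange double bonds of unsaturated fatty acids, were below the Steap4f/f range in both Steap4AKO libraries. Eci1, an enoyl-CoA isomerase, was at 3723, 2596, 3140 and 3228 and at 1179 and 2235, a mean 1.86-fold lower (log2 difference -0.95, SE 0.26, adjusted p = 0.138). Decr1, the dienoyl-CoA reductase, was at 4920, 4693, 4721 and 5353 and at 2631 and 3728, a mean 1.55-fold lower (log2 difference -0.65, SE 0.17, adjusted p = 0.123). Eci2, a second isomerase found in mitochondria and peroxisomes, was at 1617, 1710, 1577 and 1928 and at 1377 and 1562. It was the smallest difference among the 16 genes without overlap, at a mean 1.16-fold lower (log2 difference -0.22, SE 0.14, adjusted p = 0.447).

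The electron transfer flavoprotein and its dehydrogenase, which pass electrons from the acyl-CoA dehydrogenases to ubiquinone, were lower without overlap in all 3 genes. Etfb (ENSMUSG00000004610, chromosome 7, 43444083 to 43457800), the beta subunit, was at 5529, 4836, 5415 and 4334 and at 2045 and 3074. Its mean was 5029 ± 553.8 (SD, n = 4) against 2560 ± 728 (SD, n = 2), 1.96-fold lower (log2 difference -1, SE 0.19, adjusted p = 0.0665), and it was -0.7 in replicate 3 alone. Etfa, the alpha subunit, was at 7038, 5586, 6692 and 7777 and at 3082 and 5211, a mean 1.63-fold lower (log2 difference -0.75, SE 0.23, adjusted p = 0.174). Etfdh, the ubiquinone oxidoreductase, was at 2725, 2653, 2708 and 3563 and at 1738 and 2232, a mean 1.47-fold lower (log2 difference -0.55, SE 0.18, adjusted p = 0.18). Among these 3 genes the gap between the groups was widest for Etfb, whose higher Steap4AKO value was well below its lowest Steap4f/f value.

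**Figure D4:**
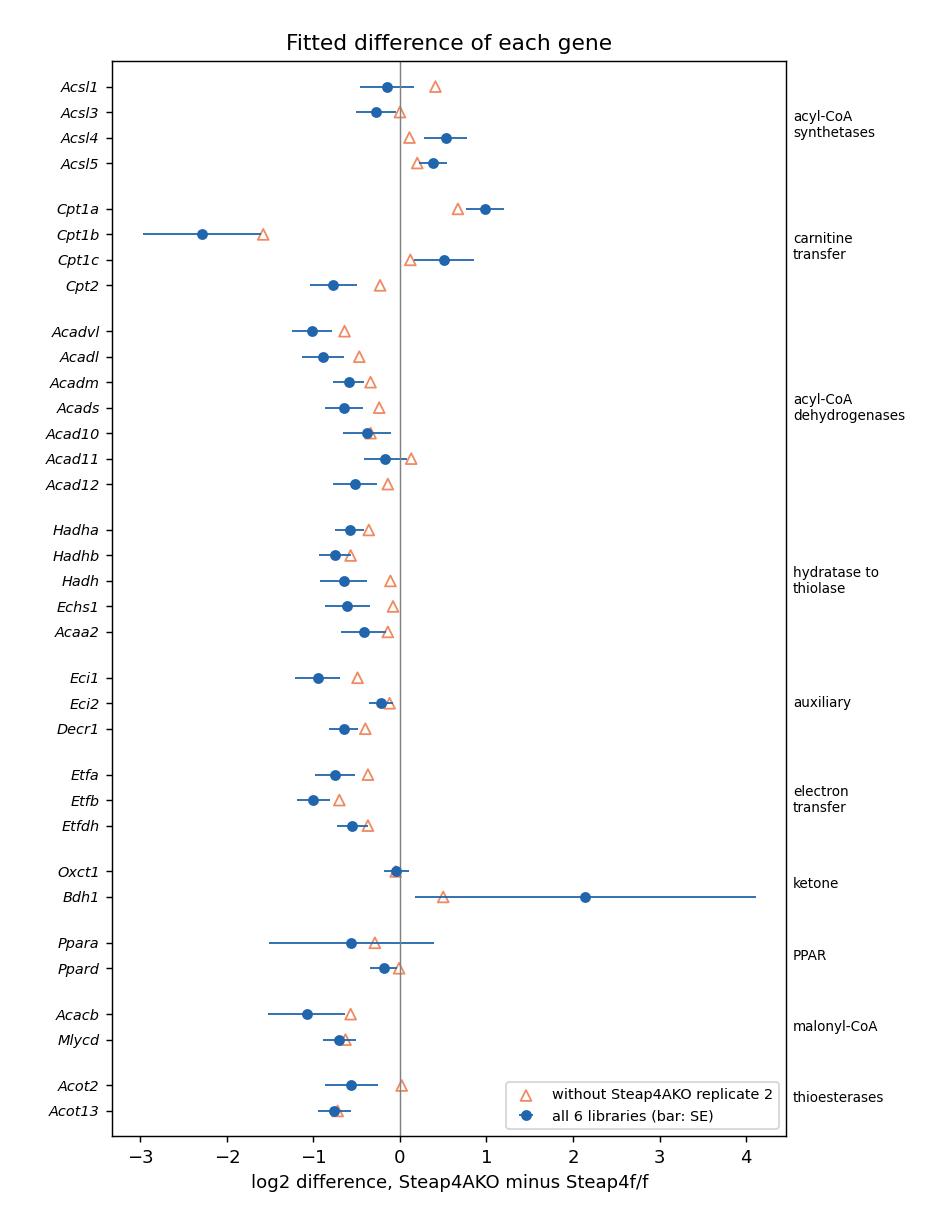
Fitted log2 difference, Steap4AKO minus Steap4f/f, of each gene with its SE over all 6 libraries (filled points), and the difference without Steap4AKO replicate 2 (open triangles). The electron transfer genes lie at -1 to -0.55 with all libraries, and Acsl1, Acsl3, Acad11 and Acot2 lie at or above 0 without that replicate.

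The 2 ketone genes of the set, Oxct1 and Bdh1, lay within the Steap4f/f range in both Steap4AKO libraries. Outside the set, Acat1 and Slc16a1 had lower means without overlap, as described further on, while Bdh2 had a higher mean with overlap. Oxct1, succinyl-CoA transferase, the rate-setting enzyme of ketone use, was at 6893, 6011, 5558 and 6664 and at 6113 and 6025. Both Steap4AKO libraries lay inside the Steap4f/f range, with a log2 difference of -0.04 (SE 0.14, adjusted p = 0.887) that turned to 0.14 with equal column totals. Bdh1, which interconverts 3-hydroxybutyrate and acetoacetate, had 0, 10.6, 0 and 92 and 77.7 and 7.12, and with values this low and scattered its log2 difference of 2.14 had an SE of 1.97 (adjusted p = 0.591).

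The nuclear receptors that regulate these genes were low or overlapped. Ppara, the PPAR isoform of oxidative tissues, was at 8.16, 74.1, 112 and 58.8 and at 25.2 and 37. Steap4f/f replicate 1 was lower than both Steap4AKO libraries, and the log2 difference was -0.56 (SE 0.95, adjusted p = 0.78). Ppard, the widely expressed isoform, was at 1021, 928.7, 851.3 and 850.1 and at 707.2 and 905.7 (log2 difference -0.19, SE 0.16, adjusted p = 0.568).

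Malonyl-CoA, the inhibitor of carnitine palmitoyltransferase 1, is made at mitochondria by Acacb and removed by Mlycd. Acacb was at 8943, 4184, 3067 and 6367 and at 1727 and 3513. Replicate 3 lay inside the wide Steap4f/f range, and the mean was 2.15-fold lower (log2 difference -1.08, SE 0.44, adjusted p = 0.255). Mlycd, malonyl-CoA decarboxylase, was at 1415, 1221, 1029 and 1568 and at 753.5 and 834.7, a mean 1.65-fold lower without overlap (log2 difference -0.7, SE 0.19, adjusted p = 0.134). The enzyme that makes the inhibitor and the one that removes it were thus both lower in mean.

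The thioesterases, which split acyl-CoA again, differed from each other. Acot13 was at 462.1, 541.6, 478.5 and 655.5 and at 305.2 and 321.3, a mean 1.71-fold lower without overlap (log2 difference -0.76, SE 0.19, adjusted p = 0.118). Its Steap4AKO values were close to each other, with -0.79 in replicate 2 and -0.72 in replicate 3 on the log2 scale. Acot2, the mitochondrial long-chain enzyme, was at 445.7 to 600.2 in Steap4f/f, with 230.5 and 512.1 in Steap4AKO. The 2 Steap4AKO libraries were also near each other for Mlycd (-0.78 and -0.63), whereas for Cpt2 they stood at -1.32 and -0.23 and for Hadh at -1.19 and -0.11.

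Of 39 listed genes of fatty acid and ketone metabolism outside the set, 34 were tested, 26 with a lower and 8 with a higher fitted value (median -0.28, or -0.16 without Steap4AKO replicate 2). None was called, and without Steap4AKO replicate 3 there were 3 calls, against 5.47% of all genes. An unadjusted p under 0.05 was found for 12 (10 lower, 2 higher), against 18.1% of all genes. In both Steap4AKO libraries 9 lay below every Steap4f/f library, against 14.4% of all genes, and 3 above, against 14.1%. Slc25a20, the carnitine-acylcarnitine carrier, had a 1.72-fold lower mean (adjusted p = 0.116), and Crat, carnitine acetyltransferase, a 1.55-fold lower mean (adjusted p = 0.223). Acsl6, a synthetase of brain and muscle, was at 37.2 to 107.3 in Steap4f/f, with 7.53 and 1.07 in Steap4AKO (adjusted p = 0.0658). Acaca, the carboxylase of fatty acid synthesis, had a 2.01-fold lower mean (adjusted p = 0.141). On the ketone side Acat1, the mitochondrial acetoacetyl-CoA thiolase, and the monocarboxylate transporter Slc16a1 had means 1.68-fold and 1.88-fold lower without overlap (adjusted p = 0.168 and 0.206). The 3 genes above every Steap4f/f library were the organic cation transporter Slc22a4 (1.41-fold higher mean), Acad9, which also helps to assemble complex I (1.33-fold higher), and the thioesterase Acot4 (1.85-fold higher).

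Of 28 listed PPAR targets and coregulators, 25 were tested, 18 with a lower and 7 with a higher fitted value (median -0.20, or -0.01 without Steap4AKO replicate 2). None was called, while 1 was without Steap4f/f replicate 1, a fit in which 238 of all genes were called. In both Steap4AKO libraries 5 of the 25 lay below every Steap4f/f library, against 14.4% of all genes, and 1 above, against 14.1%. At an unadjusted p of 0.05 there were 8, 7 lower and 1 higher, against 18.1% of all genes (9.66% lower and 8.45% higher). Pdk4, the kinase that shuts pyruvate out of mitochondria, was at 3635 to 12469 in Steap4f/f, with 1822 and 1709 in Steap4AKO (mean 3.59-fold lower, adjusted p = 0.135). Pdk2, a related kinase, had a 2.09-fold lower mean (adjusted p = 0.0814), and Fabp3, the fatty acid binding protein of heart and muscle, was at 178.4 to 2217 and at 36.2 and 32.4 (adjusted p = 0.078). Fabp3, like Cpt1b, was lowest in Steap4f/f replicate 1 and highest in replicate 6 among the controls, as were the summed muscle markers. The summed thermogenic adipocyte markers were also highest in replicate 6. Apart from the muscle covariate, a link of these genes to either list was not tested. Ucp3 had a 2.15-fold lower mean with overlap (adjusted p = 0.218). Ppargc1a, the coactivator of mitochondrial genes, was at 152 to 475.6 and at 87.6 and 180.5, and Esrra at 895.5 to 1324 and at 912 and 1119. Pparg, the adipogenic receptor, was at 3793 to 5199 in Steap4f/f, at 2497 in Steap4AKO replicate 2 and at 5358 in replicate 3. Among the higher genes Ucp2 had 9358 in Steap4AKO replicate 2 and 2962 in replicate 3, inside the Steap4f/f range of 2288 to 3126. Plin2 had 13431 and 8395 against 7625 to 9760, and Esrrg 78.3 and 89.1 against 24.4 to 113.7.

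Some of these genes share transcript sequence with others, so that their reads cannot be assigned with certainty. Over windows of 75 bases, 92.1% of the Cpt1b transcript is also in the annotated gene Gm44502 and 66.3% of the Etfb transcript in Gm45233, and neither of these has a row in the table. For Hadhb 57.2% is in Gm13910, at 40 to 62.5 across Steap4f/f with 20.1 and 33.9 for Steap4AKO, and the sum of both had a log2 difference of -0.75. Acadvl shares 14% of its windows with Dvl2, Acad11 12.6% with 2 other genes and Oxct1 11.4% with BC037032, and no sums were made for these. Acad10 and Acad12 share 14.6% and 14.4% of their windows with each other. Each of them overlapped between groups, but their sum was at 1184, 1061, 996.5 and 1108 and at 660.4 and 917.1, without overlap (log2 difference -0.48). Acot2 shares 21.2% with other genes, mostly Acot1, which was at 5.58 to 64.6 in Steap4f/f, with 123.8 and 20.9 in Steap4AKO, and their sum had a log2 difference of -0.29 against -0.56 for Acot2 alone.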

How the data were processed

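Total RNA of 6 iWAT libraries was sequenced. The submitters' processing notes, where the authors name tools without roles, list STAR (2.7.0e), RSEM (1.3.3), R (4.2.0), DESeq2 (1.12.4), GRCm38 and mm10. No annotation is named. The deposited values are a normalized signal per gene that the authors' table name ascribes to DESeq2. They are not whole reads, so no count test was run. GENCODE M21 (GRCm38) gave symbols to 15125 of 15176 genes.

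Differences were tested with limma 3.58.1 in R 4.3.3 on log2(value + 1), with a variance trend, for 15006 genes with a mean of at least 10, two-sided, with Benjamini-Hochberg adjustment over all of them and a threshold of 0.05. The design used all 6 libraries and no covariate. Tested on data simulated for these groups (14375 to 14385 genes), the fit called 39% of true 2-fold changes and 76.6% of true 4-fold changes. All simulated libraries had independent noise with each gene's Steap4f/f SD, which was capped, and genes with low values were left unchanged. The unequal shifts of the Steap4AKO libraries were not simulated, so these shares may be too high for this comparison. Level per kilobase used the best-ranked APPRIS principal transcript, the longest where several tied. The genes and lists were chosen with earlier results of these data known. All 34 genes are named, with values in every library where the groups did not overlap or the unadjusted p was under 0.05 and for 10 preset genes. Of the other pathway genes 12 preset ones, called ones and the 3 with the smallest p in each direction of each list were to be named, of which 2 preset ones are not reported here. Alternatives were other pseudocounts, filters, scalings, variance settings, a muscle covariate and each library left out; sums of genes that share sequence were added after seeing the data. Figures were drawn with matplotlib 3.10.9.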

Additional observations from a re-analysis of the deposited data

Results flagged for a closer look

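In 5 of the 34 genes 1 Steap4f/f library lay far from the other 3, with a gap to its nearest neighbour above Dixon's 95% critical share of the whole range, where chance flags about 1 group in 20. Etfdh was highest in Steap4f/f replicate 6, at 3563 against 2653, 2708 and 2725. Bdh1 was highest in the same library, at 92.05 against 0, 0 and 10.6. Acads was lowest in Steap4f/f replicate 2, at 3753 against 4464, 4491 and 4543. Acsl3 was lowest in Steap4f/f replicate 5, at 331.4 against 445.9, 452.5 and 463.4. Acsl5 was highest in Steap4f/f replicate 1, at 1166 against 977.2, 985.8 and 999.3, near the Steap4AKO value of 1179.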

How the results depend on the processing

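No member was called under any setting except without Steap4AKO replicate 3, and the count of called members with 1 library left out ranged from 0 to 11. The median log2 difference ranged from -0.82 to -0.24 with 1 library left out. The count of members lower without overlap ranged from 16 without Steap4AKO replicate 2 to 26 without Steap4AKO replicate 3. In both of those settings 1 Steap4AKO library alone had to lie below every Steap4f/f library. Of all genes 23.4% and 28.6% did so, against 14.4% with both Steap4AKO libraries. The median was -0.39 after rescaling to equal column totals, where the median of all genes was 0.21 (0.02 as reported), and 0.01 with the muscle markers as a covariate, where 16 members were lower and 18 higher. The sums of those markers do not overlap between the groups, so muscle content and genotype cannot be told apart in that fit. Its estimates were less precise, with an SE for Etfb of 0.43 against 0.19 as reported. Counts without overlap could not be made with a covariate.

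The count over all genes, 71 as reported, was 1 with a pseudocount of 0.5, 1 with a mean of at least 50, 119 with array weights, 1 with a robust prior, 13 without the variance trend (9 higher and 4 lower, against 6 and 65 as reported), 1 with the muscle covariate and 1 to 821 with 1 library left out: 238 without Steap4f/f replicate 1, 821 without Steap4AKO replicate 3 and 1 without each of the others. The cause was not tested.

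Directions turned for Acsl1 (0.04), Acad11 (0.01) and Oxct1 (0.14) with equal totals and for Acsl1 (0.06) and Oxct1 (0.10) under quantile normalization. With the muscle covariate they turned for Acsl1 (0.98), Acsl3 (0.24), Acsl4 (-0.20), Acsl5 (-0.15), Cpt1b (1.07), Cpt2 (0.04), Acads (0.01), Acad11 (0.49), Acad12 (0.52), Hadha (0.02), Hadh (0.33), Echs1 (0.18), Acaa2 (0.57), Eci2 (0.15), Etfdh (0.04), Ppara (2.34) and Acot2 (0.62). With 1 library left out the ranges were -0.71 to 0.41 for Acsl1, -0.56 to 0.0026 for Acsl3, -0.48 to 0.13 for Acad11, -0.10 to 0.0018 for Oxct1 and -1.13 to 0.02 for Acot2. Under the other settings every member tested kept its direction (33 with a mean of at least 50, otherwise 34). No paired analysis was possible because the groups share 1 replicate number. Tests of counts were not run because whole reads were not recovered. Depth is known only as an estimate, which limits genes with values as low as those of Bdh1 and Ppara.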
